A study of Mus musculus with 6 samples.

Results

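Skeletal myosin heavy chain isoforms were taken as the 6 genes Myh1, Myh2, Myh3, Myh4, Myh7 and Myh8, chosen by name among the 52550 mouse genes of the deposited table, and all 6 were listed there and had counts in both genotypes. The RNA came, per the labels, from quadriceps of male mice at 13 weeks, 3 FLExDUX4 and 3 WT. The study describes the WT mice as littermates. The methods of the study describe triceps of younger males, and this difference was not resolved. FLExDUX4 mice are hemizygous for a human DUX4 transgene that lies inverted between lox sites at the Rosa26 locus. They carry no Cre, so any DUX4 transcript comes from leakage of the uninduced allele, and WT littermates lack the transgene. Libraries were made with QuantSeq, which primes at the poly(A) tail and reads the 3′ end, so a transcript gives about a single read whatever its length and counts can be compared between genes. The table holds, for each gene, the count added over all mice of a genotype. Summed over genes, the FLExDUX4 column held 13110125 counts and the WT column 18367364. Columns for single mice carry numbers that match no label and were not used. The values below are therefore 1 per genotype and gene, no test between genotypes was made, and each interval below is a 95% interval for counting error alone that leaves out the spread between mice.

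Myosin heavy chain is the motor protein of the thick filament, and the isoform a fiber expresses largely sets its speed of contraction. In adult mouse limb muscle, Myh7 encodes the slow type I chain, Myh2 the IIa chain, Myh1 the IIx chain and Myh4 the fastest IIb chain. Myh3 and Myh8 encode the embryonic and perinatal chains, which are replaced by adult chains after birth and return in regenerating fibers. A fiber can express more than a single isoform, and a piece of whole muscle mixes many fibers, so fewer fibers of a type and less RNA per fiber cannot be told apart here.

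Apart from Myh7, the isoforms lie in a single cluster on chromosome 11 of GRCm38, all on the plus strand, where the deposited starts equal those of the GENCODE M21 annotation. From the first base of Myh3 to the last base of Myh13, the extraocular isoform, the cluster runs from 67078300 to 67371586, or 293 kb. Within it Myh3 lies at 67078300 to 67102291, Myh2 at 67171027 to 67197517, Myh1 at 67200052 to 67224575, Myh4 at 67238029 to 67260446 and Myh8 at 67277124 to 67308634. Myh7 lies on the minus strand of chromosome 14, at 54970684 to 54994626 in GENCODE M21. Its deposited position, 54970688, differs slightly from the lower of these and marks the 3′ end of the gene. The 4 genes Myh4, Myh1, Myh2 and Myh8 share sequence in their promoters, which are shown here because the adult fast isoforms among them make up nearly all myosin heavy chain RNA of the samples while differing widely in level. Each window runs from 250 bases before to 50 bases after a RefSeq start (GRCm38.p6), 5′ to 3′ on the plus strand, at chr11:67237562-67237861 for Myh4, chr11:67199852-67200151 for Myh1, chr11:67170777-67171076 for Myh2 and chr11:67276874-67277173 for Myh8. Capitals mark the words TTCTAATTATATCC and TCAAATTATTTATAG and the TATA word TATAAAAG.
Myh4: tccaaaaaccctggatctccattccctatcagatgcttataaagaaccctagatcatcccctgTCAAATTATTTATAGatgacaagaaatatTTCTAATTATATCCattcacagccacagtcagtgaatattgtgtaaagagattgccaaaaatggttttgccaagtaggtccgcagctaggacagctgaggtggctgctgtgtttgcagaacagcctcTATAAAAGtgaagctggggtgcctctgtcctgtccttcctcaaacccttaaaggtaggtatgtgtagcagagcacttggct
Myh1: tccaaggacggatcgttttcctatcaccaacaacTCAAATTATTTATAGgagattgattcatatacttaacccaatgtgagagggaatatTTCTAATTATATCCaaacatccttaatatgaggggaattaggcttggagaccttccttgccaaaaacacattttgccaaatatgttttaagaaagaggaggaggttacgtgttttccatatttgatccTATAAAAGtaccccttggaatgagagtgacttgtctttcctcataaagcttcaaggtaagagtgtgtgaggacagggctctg
Myh2: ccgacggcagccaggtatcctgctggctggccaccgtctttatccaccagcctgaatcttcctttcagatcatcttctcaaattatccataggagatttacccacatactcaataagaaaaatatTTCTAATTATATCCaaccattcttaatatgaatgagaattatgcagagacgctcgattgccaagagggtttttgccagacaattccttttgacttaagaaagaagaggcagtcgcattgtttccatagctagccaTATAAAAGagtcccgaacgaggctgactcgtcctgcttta
Myh8: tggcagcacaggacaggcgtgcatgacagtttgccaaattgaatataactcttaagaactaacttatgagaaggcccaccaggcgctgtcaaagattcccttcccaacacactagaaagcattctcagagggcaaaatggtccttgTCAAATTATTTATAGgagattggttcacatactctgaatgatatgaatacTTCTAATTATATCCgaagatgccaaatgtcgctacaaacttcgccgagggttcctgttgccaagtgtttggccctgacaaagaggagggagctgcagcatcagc
The Myh4 window lies upstream of the start given in the deposited table. The 14-base word TTCTAATTATATCC was the longest shared by these 4 windows. In a search of both strands it occurred in 4 of 32851 promoter windows of the mouse genome (0.0122%), which were those of Myh1, Myh2, Myh4 and Myh8. The 15-base word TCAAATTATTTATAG occurred in 3 windows (0.00913%), those of Myh1, Myh4 and Myh8. In the 3 adult fast genes the 14-base word was part of a longer shared run of 20 bases, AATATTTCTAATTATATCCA. The 14-base word began 158 bases before the RefSeq start in Myh4, 160 in Myh1 and 54 in Myh8, with Myh2 in between. The TATA word began 31 bases before the start in Myh4, 32 in Myh1 and 29 in Myh3, and 10 bases after the annotated start in Myh2, and 1.70% of all windows hold it. Neither of the 14-base and 15-base words was found in the windows of Myh3 or Myh7.

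**Figure D1:**
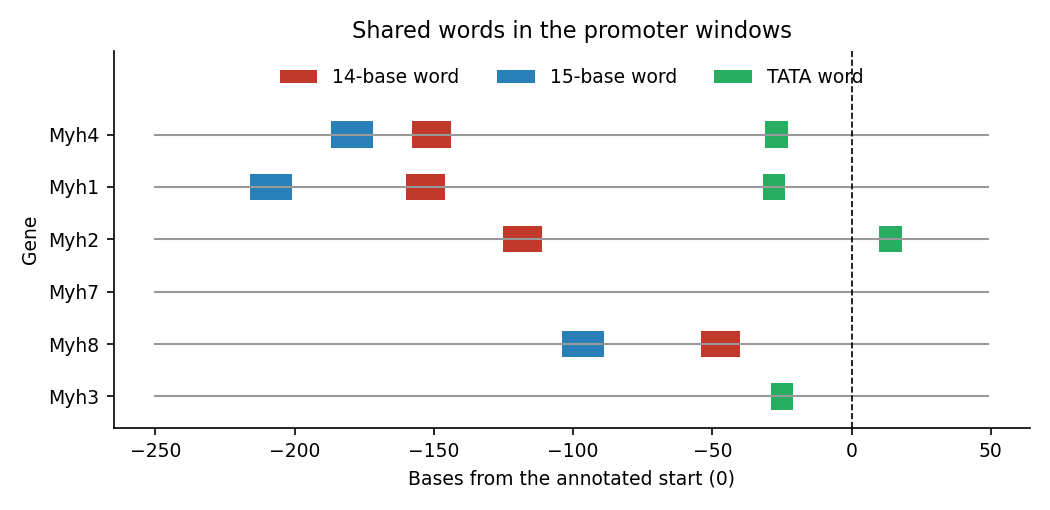
Position of the shared words in the promoter window of each gene, in bases from the annotated start (dashed line). Boxes are drawn to scale, neither of the 2 RefSeq windows of Myh7 holds a word, and the 14-base word sits 158 and 160 bases before the start in Myh4 and Myh1.

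Because these genes resemble each other, reads of one can be assigned to another. The coding sequences of Myh4 and Myh1 were 90.1% identical, those of Myh1 and Myh2 91.0%, and those of Myh4 and Myh7 77.7%. The last 500 bases of the transcripts, near where QuantSeq reads lie, were less alike, with 81.8% identity between Myh4 and Myh1 and 75.0% between Myh1 and Myh2. Of all 75-base words in the last 500 bases, the nominal read length, 2.57% of those of Myh4 also occurred in a transcript of another gene, 17.4% for Myh1, 47 of 429 words for Myh2 and none of 426 and 431 for Myh8 and Myh3. For Myh7 it was 35.4%, all shared with Myh6, the alpha cardiac chain. Myh6 itself had 13 counts in FLExDUX4 mice and 19 in WT mice. How reads that matched several genes were counted is not given in the sources used here, so how many reads were exchanged between isoforms is not known. Because Myh4 had many more counts than the others, even a small share of its reads would weigh on Myh1 and Myh2.

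Myh4, the IIb chain, was by far the most abundant isoform, with 384762 counts in FLExDUX4 mice and 575807 in WT mice. After scaling by TMM, a method that sets the bulk of genes to no change, this is 29650 and 31030 CPM (counts per 1000000 counts). It ranked 5 among all genes in each genotype. Myh1, the IIx chain, had 29694 counts against 48404, or 2289 and 2608 CPM. Myh2, the IIa chain, had 14187 counts against 20857, or 1093 and 1124 CPM. The adult fast isoforms thus stood in the order Myh4, Myh1, Myh2 in both genotypes, and no 2 neighbours came near each other, since Myh4 had 12.96 counts for each of Myh1 in FLExDUX4 mice and 11.9 in WT mice, and Myh1 had 2.093 and 2.321 for each of Myh2. Myh7, the slow chain, followed with 1268 counts against 1865, or 97.73 and 100.5 CPM. The 3 adult fast isoforms together had 338.0 counts for each count of Myh7 in FLExDUX4 mice and 345.9 in WT mice.

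The developmental isoforms were the least abundant of the 6. Myh8, the perinatal chain, had 77 counts in FLExDUX4 mice and 91 in WT mice (5.935 and 4.903 CPM), and Myh3, the embryonic chain, had 36 and 56 (2.775 and 3.017 CPM). Together they made up 0.0263% of the isoform counts in FLExDUX4 mice (interval 0.0217 to 0.0316) and 0.0227% in WT mice (interval 0.0192 to 0.0267). The difference of 0.00356 percentage points had an interval from -0.00239 to 0.00986, so a difference was not detectable at this depth.

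**Figure D2:**
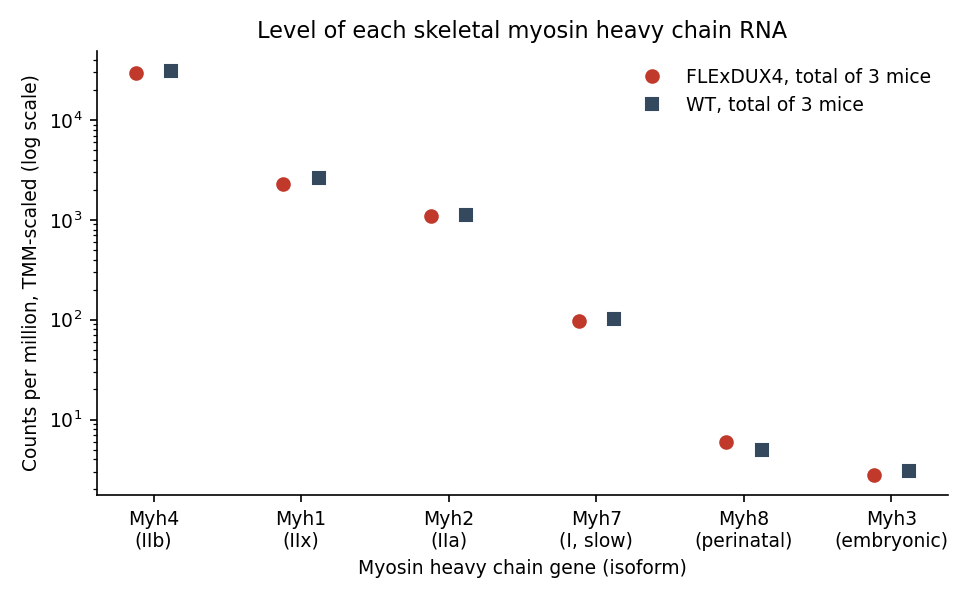
Level of each isoform in CPM on a log axis, for the total of 3 FLExDUX4 mice (circles) and of 3 WT mice (squares). The order from Myh4 to Myh3 is the same in both genotypes, from 29650 and 31030 CPM down to 2.775 and 3.017 CPM.

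Did the balance between isoforms differ between the group totals? Shares of the summed isoform counts describe this without any scaling, but they leave out the spread between mice. The sum was 430024 counts in FLExDUX4 mice and 647080 in WT mice. Myh4 held 89.5% of it in FLExDUX4 mice (interval 89.4 to 89.6) and 89.0% in WT mice (interval 88.9 to 89.1), a difference of 0.489 points (interval 0.370 to 0.608). Myh1 held 6.91% (interval 6.83 to 6.98) against 7.48% (interval 7.42 to 7.55), a difference of -0.575 points (interval -0.674 to -0.476). The lower share of Myh1 and the higher share of Myh4 in FLExDUX4 mice were the largest differences of composition. Both were larger than counting error. Shares rise at each other's expense, so these differences are not independent. The level of Myh4 itself was not higher in FLExDUX4 mice, at 29650 CPM against 31030 in WT mice.

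Myh2 held 3.30% in FLExDUX4 mice and 3.22% in WT mice, a difference of 0.0759 points (interval 0.00745 to 0.145). Myh7 held 0.295% and 0.288%, and its difference of 0.00665 points had an interval from -0.0140 to 0.0276. The slow isoform was thus not separated between the genotypes by the counts. The 3 fast isoforms together held 99.68% and 99.69%, a difference of -0.0102 points (interval -0.0321 to 0.0113). With Myh4 left out of the sum, Myh1 held 65.6% of the remainder in FLExDUX4 mice and 67.9% in WT mice, and Myh2 held 31.3% and 29.3%.

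**Figure D3:**
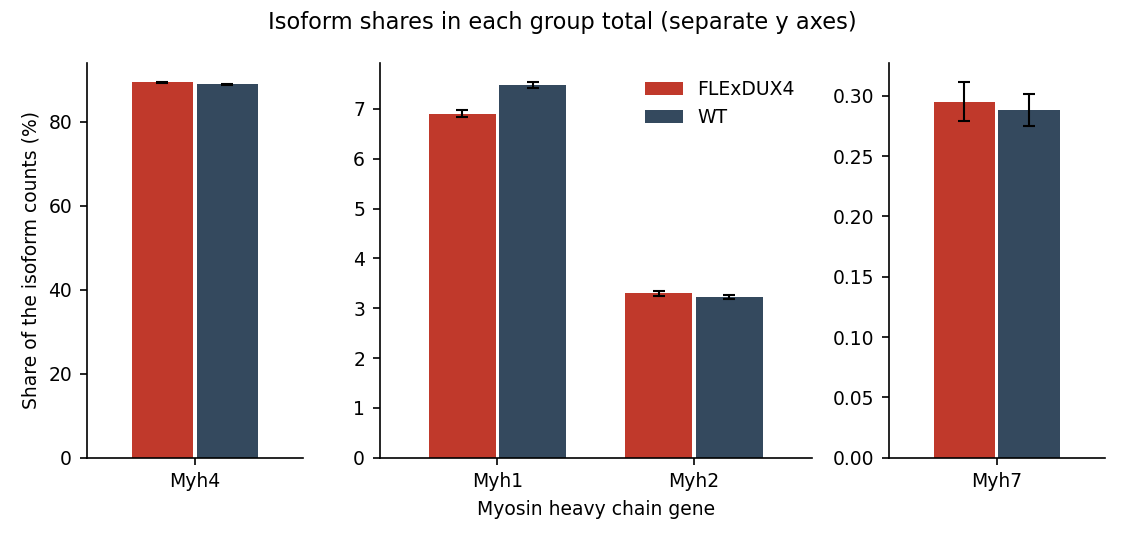
Share of the summed counts of the 6 isoforms held by Myh4, Myh1, Myh2 and Myh7 in each group total, in percent, on separate axes that start at 0. Error bars are 95% Clopper-Pearson intervals for counting error, and the bars of Myh1 stand at 6.91% against 7.48%.

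Set against the whole transcriptome, the isoforms differed little between genotypes. Myh4 had a log2 ratio of FLExDUX4 to WT of -0.07 (0.956-fold, interval 0.952 to 0.960). Myh1 had the ratio farthest below 0, at -0.19 (0.877-fold, interval 0.865 to 0.890). Myh2 had a ratio of -0.04 (0.973-fold, interval 0.952 to 0.994). These 3 intervals exclude a ratio of 0, but they cover counting error only, which is small at such depth, and a single mouse could decide any of these ratios.

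The intervals of the other isoforms included no change. Myh7 also had a ratio of -0.04, with an interval from -0.14 to 0.06. Myh8 was the only isoform with a ratio above 0, at 0.28, with an interval from -0.18 to 0.73. Myh3 had a ratio of -0.11, with an interval from -0.77 to 0.51, so a difference of up to 1.42-fold higher or down to 0.588-fold was within counting error. The summed isoforms took 3.28% of all gene counts in FLExDUX4 mice and 3.52% in WT mice, a log2 ratio after scaling of -0.07.

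Of the 6 isoforms, none was past 1.5-fold in either direction. The share of all 13396 genes tested, meaning those that passed the filter on low counts, that was past 1.5-fold was 26.8%, most of them genes with few counts. Among the 2727 genes with at least 1000 counts summed over both genotypes, a group that holds Myh4, Myh1, Myh2 and Myh7, the share was 1.25% (0.843% higher and 0.403% lower), and 0 of these 4 were past 1.5-fold, a result that most abundant genes shared. The median ratio of the isoforms was -0.05, beside -0.001 for all genes tested. Among the 236 genes with at least 10000 counts, a limit set after the values were seen, 1 (0.424%) was past 1.5-fold, Glul, with a ratio of 1.07, and 90% had ratios between -0.18 and 0.23. Myh1 lay just below that range, and 89.4% of those genes had a ratio of smaller size, while for Myh4 it was 56.4% and for Myh2 32.6%.

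**Figure D4:**
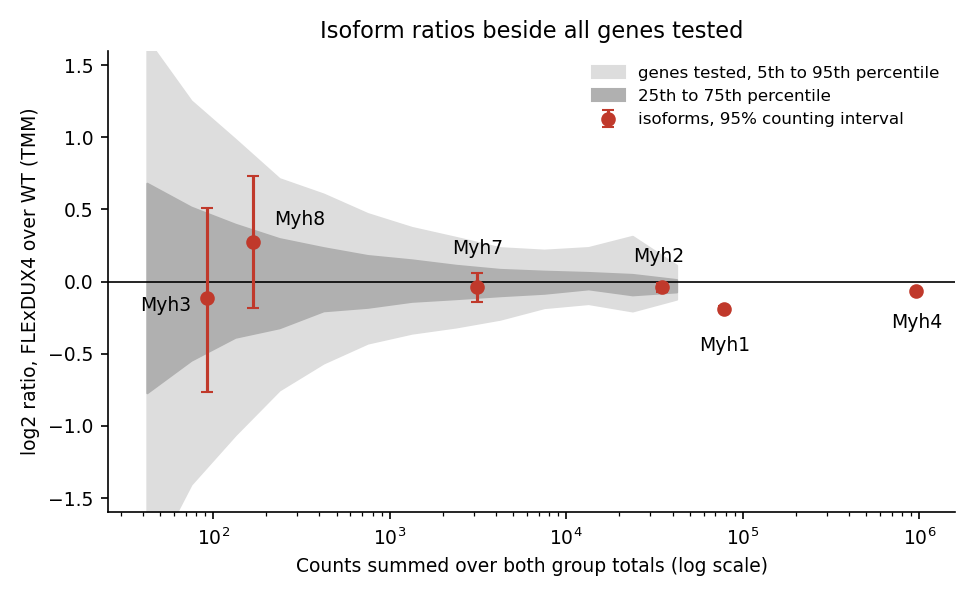
Log2 ratio of FLExDUX4 to WT group totals after TMM scaling (y axis) against the counts summed over both totals (x axis, log scale), for the isoforms with 95% counting intervals. Grey bands give percentiles of all genes tested in bins of at least 20 genes, and Myh3, Myh8, Myh7 and Myh2 fall inside the outer band, while Myh1 (-0.19) and Myh4 (-0.07) lie beyond its right end.

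The size of these ratios rests on the scaling. The libraries also held added spike-in RNAs, and when the totals were scaled to those instead, every gene moved by -0.28 and the median of all genes became -0.28. On that scale Myh4 had a ratio of -0.34, Myh1 of -0.47, Myh2 and Myh7 of -0.32 each, Myh3 of -0.39 and Myh8 of about 0 (0.001). All tested genes of the lists described below for other myosin heavy chains, fast partners, slow partners, folding and regulators were then below 0, with 6 of 7 for the light chains and 3 of 5 for immature fibers. Relative to the median of all genes, the values are the same under both. Differences of share within the family do not depend on the choice.

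The chromosome 11 cluster also holds noncoding genes, and 9 of its 11 features in the table had counts. The lincRNA 2310065F04Rik, between Myh3 and Myh2 on the opposite strand (67112461 to 67120080), gave 1806 counts for FLExDUX4 and 2267 for WT, a log2 ratio of 0.19 (interval 0.10 to 0.28). Myhas, an antisense gene that runs from the body of Myh1 to just before Myh4 (67211256 to 67237573), had 531 against 772, a ratio of -0.02 (interval -0.19 to 0.14). The antisense gene 9430073C21Rik, which overlaps the end of Myh2 (67195680 to 67199234), had only 19 against 64, a ratio of -1.21 (interval -2.06 to -0.48). Whether the counting used strand is not given in the sources used here, and without it, reads of an antisense gene cannot be told from those of its partner. Of the 4 other features that overlap Myh7, none had a count, among them the microRNA gene Mir208b.

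Of 8 myosin heavy chain genes outside the skeletal set, 7 had enough counts to be tested, 2 with a ratio above 0 and 5 below, none past 1.5-fold, and with a median of -0.01. Myh9, a nonmuscle myosin and the most abundant of them, had 548 counts against 788 and a ratio of -0.01. Myh13, the extraocular chain at the end of the fast cluster, had the lowest ratio, -0.58, from 48 counts against 103 (interval -1.11 to -0.08). Myh7b had the highest, 0.20, from 20 against 25. Myh15 had 0 counts in FLExDUX4 mice, which allows up to 0.229 CPM on gene totals without TMM scaling, and 8 in WT mice.

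The light chains that bind myosin heavy chain, with the muscle light chain kinase Mylk2, had ratios on both sides of 0, 4 above and 3 below, with a median of 0.01. Mylpf, the fast regulatory light chain and the most abundant, had 138938 counts against 201958 and a ratio of -0.02. Myl2, the slow regulatory light chain, had the lowest ratio, -0.25, from 1364 counts against 2314. Myl4, the embryonic light chain, had the highest, 0.30, from 30 against 35. None was past 1.5-fold.

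Genes that accompany fast myosin in the fiber were close to 0, 7 of 8 slightly below it, with a median of -0.03 and none past 1.5-fold. Tnnt3, fast troponin T, had 191054 counts against 277657 and a ratio of -0.02. The lowest was Tnnc2, fast troponin C, at -0.10, and the highest Actn3, the alpha-actinin of fast fibers, at 0.12. Genes of slow fibers had 5 of 8 ratios above 0, with a median of 0.06 and none past 1.5-fold. Mybpc1, slow myosin-binding protein C, had 13139 counts against 18173 and a ratio of 0.05, Tnnc1, slow troponin C, the lowest at -0.13, and Actn2 the highest at 0.24. Genes for folding and assembly of myosin, such as the chaperone Unc45b (0.12), the cytosolic chaperone Hsp90aa1 (-0.14) and the M-band protein Myom2 (0.11), had a median of 0.001, with 3 of 6 above 0 and none past 1.5-fold.

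Of 8 transcription regulators linked to isoform choice, 6 were below 0 and 2 above, with a median of -0.35, beside -0.001 for all genes tested. This list was chosen with earlier results of these data known, so its median is a description and no independent evidence. Six4, a homeobox factor of the fast program, had 410 counts against 889 and the lowest ratio, -0.60 (interval -0.77 to -0.43), and was the only member of the list past 1.5-fold lower, as were 13.5% of all genes tested and 0.403% of those with at least 1000 counts, to which Six4 belongs. Maf, the most abundant, had 8465 against 15793 and a ratio of -0.38, and Sox6, a repressor of slow genes, had 2699 against 3619 and the highest, 0.09. As for the isoforms, no spread between mice stands behind these values.

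Genes of immature or regenerating fibers, which Myh3 and Myh8 accompany, gave no common direction. Of 8 genes, 5 could be tested, 3 above 0 and 2 below, with a median of 0.20. Myog, which drives the differentiation of myoblasts, had 50 counts in FLExDUX4 mice and 32 in WT mice. Its log2 ratio was 1.15 (interval 0.49 to 1.85), which was past 1.5-fold higher, as were 13.2% of all genes tested. Chrna1, a subunit of the acetylcholine receptor, had 119 against 237 and a ratio of -0.47, and Actc1, cardiac actin of the immature fiber, had 1160 against 2104 and a ratio of -0.34. The fusion factor Mymk had 8 counts against 1, and Mymx and the fetal receptor subunit Chrng had 0 in both genotypes. On gene totals without TMM scaling, a count of 0 allows up to 0.229 CPM in FLExDUX4 mice and 0.163 in WT mice.

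**Figure D5:**
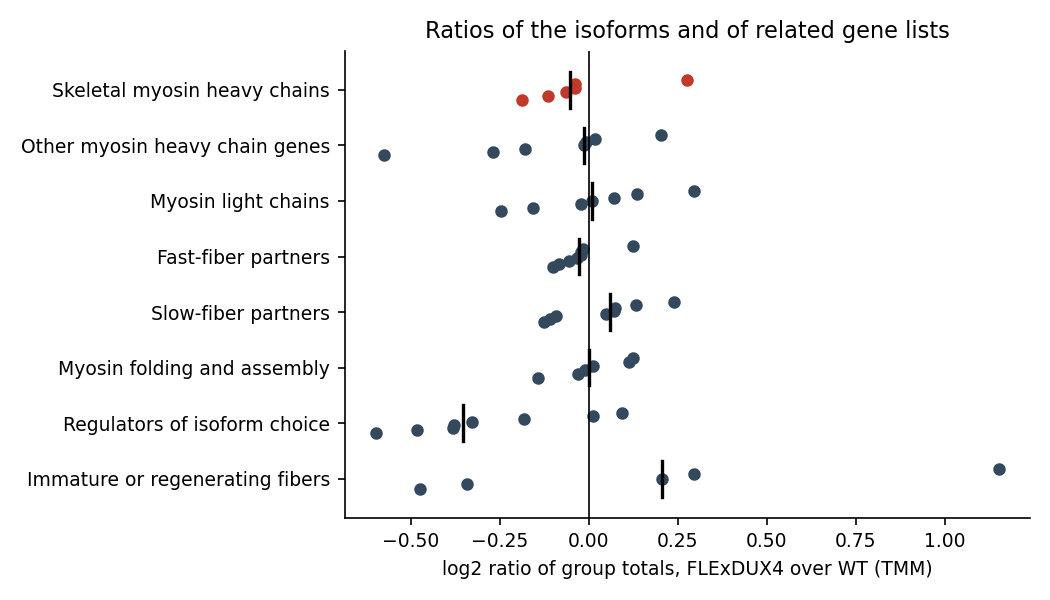
Log2 ratio of FLExDUX4 to WT group totals (x axis) for the isoforms (red) and for each tested gene of 7 related lists (dark), with the median of each as a vertical bar. The isoforms lie between -0.19 and 0.28 with a median of -0.05, and the regulators of isoform choice have the lowest median, -0.35. All lists were chosen with earlier results of these data known.

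The RNA was that of skeletal muscle, with Acta1 at 466362 counts in FLExDUX4 mice and 644116 in WT mice, and Ttn, Ckm and Mb among the abundant genes. Cardiac markers were at or near 0 in both (27 and 23 counts over 4 genes, with Myl7 at 0). Among them Ryr2 gave 14 counts for FLExDUX4 and 3 for WT, a log2 ratio of 2.57 (interval 0.90 to 5.18) that was past 1.5-fold higher, and Myh6 was at -0.01. Smooth muscle markers summed to 77.4 CPM in FLExDUX4 mice and 60.8 in WT mice, with all 4 log2 ratios above 0, from 0.02 for Myh11 to 1.80 for Cnn1 (30 counts against 12), the only gene of the list past 1.5-fold. Blood markers summed to 1155 and 917 CPM, with all 4 ratios above 0 (0.26 to 0.45). Adipocyte markers summed to 44.9 and 32.9 CPM, with 3 of 4 ratios above 0. Adipoq, the most abundant of them, gave 294 counts for FLExDUX4 and 258 for WT, and its ratio of 0.70 (interval 0.46 to 0.95) was past 1.5-fold higher, as were 13.2% of all genes tested. Lep, with 12 counts against 31, was lowest at -0.82, past 1.5-fold lower with an interval (-1.95 to 0.15) that held 0. Endothelial markers summed to 147 and 168 CPM, with Kdr at -0.56, Pecam1 at 0.07 and Cdh5 at -0.03. Macrophage markers summed to 43.2 and 46.0 CPM, with the abundant Lyz2 at -0.02, while Adgre1 (24 counts against 55) and Cd68 (23 against 52) had ratios of -0.66 (interval -1.44 to 0.04) and -0.64 (interval -1.44 to 0.07). Both were past 1.5-fold lower, as were 13.5% of all genes tested, and both intervals held 0. Schwann cell markers summed to 60.2 and 62.7 CPM, with ratios from -0.31 to 0.44. Their part in the isoform values was not tested.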

How the data were processed

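The data are 3′ end RNA-seq of quadriceps from 3 FLExDUX4 and 3 WT mice. Per the submitters' processing notes and the study's methods, reads were trimmed with Cutadapt, aligned to GRCm38 with spike-in sequences by STAR, and counted with featureCounts. The deposited counts are whole numbers per gene, added by the authors over the libraries of each genotype. The 6 columns of single libraries match no label and were not used, nor were 6 columns of the authors' own comparison (mean level, fold change, its error, statistic and p-values).

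Of 52550 genes, 13396 passed filterByExpr. TMM factors came from edgeR 4.0.16 in R 4.3.3. Ratios used a pseudocount of 0.5, and ratios and shares have 95% Clopper-Pearson intervals, share differences Newcombe intervals (scipy). With 1 total per genotype there was no test, and a gene was called past 1.5-fold. This replaced the edgeR quasi-likelihood test planned for single libraries. The computation was tested on simulated counts. Named genes were all isoforms and, in each list of related genes, the lowest and highest ratio and the most abundant gene. Marker genes and other genes outside this rule were named after their values were seen. Members and lists were chosen with earlier results of these data known. Promoters came from RefSeq and transcripts from GENCODE M21. Alternatives covered scaling, filter, pseudocount, fold and share denominator.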

Additional observations from a re-analysis of the deposited data

How the results depend on the processing

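Over 9 other settings for each isoform, 54 ratios in all, none changed sign and 44 stayed inside the counting interval. The ratio of Myh4 was -0.081 with upper-quartile scaling, -0.095 with gene totals, -0.085 with gene totals without the isoforms and mitochondrial genes, -0.074 with TMM on all genes, -0.080 where both totals had to reach 10 counts, and -0.341 with spike-ins. That of Myh1 was -0.218 with gene totals and -0.465 with spike-ins, and spike-ins gave -0.316 for both Myh2 and Myh7. As a share of all gene counts, the difference was -0.2 points for Myh4, -0.037 for Myh1, -0.00534 for Myh2 and -0.000482 for Myh7, so that Myh4, Myh2 and Myh7 took the other sign. With Myh4 left out of the sum it was -2.31 for Myh1, 2.08 for Myh2, 0.185 for Myh7, 0.0424 for Myh8 and 0.000966 for Myh3, which took the other sign (-0.000283 in the full sum). The number of genes past 1.5-fold higher, 1771, became 1048 with spike-ins, 4121 with no filter and 802 past 2-fold. The number lower, 1813, became 3174, 4959 and 995, and 1047 where both totals had to reach 10 counts. These changes follow by arithmetic from the settings, since spike-in scaling, for example, moved every gene by -0.276. Why spike-in and TMM scaling differed was not tested. No paired analysis was possible because the columns of single libraries carry numbers that match no label, and so no replicate number. The quasi-likelihood fit over libraries and leaving out each library were not run, since these columns were not used. Depth limits Myh3 and Myh8 most.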
